A study of Homo sapiens with 18 samples.

Results

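The 10 genes described here encode antiviral effectors that interferon induces: the oligoadenylate synthetase family (OAS1, OAS2, OAS3 and OASL), the IFIT family (IFIT1, IFIT2, IFIT3 and IFIT5), RSAD2 and MX1. They were taken by name from a table of 58037 genes, and all 10 were among the 15185 genes with enough counts to be tested. The counts come from 18 RNA libraries of LNCaP cells, an established androgen-responsive prostate cancer line, grown in androgen-poor medium (9% charcoal-stripped serum). Cells received 1 of 3 siRNA SmartPools (mixtures of several siRNAs) by Lipofectamine 2000, directed at E2F1, at E2F2 or at no gene (control siRNA), and then ethanol vehicle or 0.1 nM R1881, a synthetic androgen. Each of the 6 combinations has 3 biological replicates, and RNA was taken 48 h after treatment. The sources state 2 intervals between transfection and treatment, 42 h and 48 h. E2F1 and E2F2 are transcription factors best known for driving genes of cell-cycle entry and DNA replication. With 1 pool for each target and no untransfected cells among the libraries, loss of the target and any other effect of a pool cannot be told apart.

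Type I and type III interferons bind receptors at the cell surface and, through the kinases JAK1 and TYK2, activate a complex that contains STAT2 and IRF9. That complex binds the interferon-stimulated response element (ISRE) in the promoters of many genes, and factors of the IRF family bind closely related sequences. The OAS enzymes sense double-stranded RNA and make 2-5A, a short oligoadenylate that sets off the cutting of RNA, whereas OASL lacks that enzymatic activity and acts on RNA sensing by RIG-I. The IFIT proteins bind viral RNA, in the case of IFIT1 through the cap structure of its end, and block its translation. RSAD2, also called viperin, makes a chain-terminating nucleotide, and MX1 is a dynamin-like GTPase that traps viral nucleocapsids.

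The libraries held 10930204 to 14819879 counts. E2F1 siRNA lowered E2F1 from 74.4 to 9.69 CPM (counts scaled to library depth with TMM factors, group means) under R1881, and E2F2 siRNA lowered E2F2 from 3.43 to 0.195 CPM. E2F2 siRNA also lowered E2F1, to 24.1 CPM. With E2F1 siRNA, E2F2 stood at 1.45 CPM under R1881, with no overlap with its controls (log2 -1.22 ± 0.38, adjusted p = 0.0586). With vehicle, E2F1 was at 37.3 CPM with control siRNA, 6.83 with E2F1 siRNA and 12.6 with E2F2 siRNA. E2F2 was at 2.29, 1.87 and 0.121 CPM in the same order, and with E2F1 siRNA it overlapped its controls. The replicate 3 libraries stood apart from the other 2 of each group: the chi-square per degree of freedom across genes was 1.73 to 4.14 between replicates 1 and 2 and 7.39 to 83.9 between replicate 3 and either. Calls that change in a fit to replicates 1 and 2 only (all 6 groups) are given with the gene's result. That fit called more of all tested genes in every comparison, 11.6% to 51.4%, against 0.685% to 30.6% with all 18 libraries. All 12 prostate luminal markers examined were tested, with summed levels of 5432 to 11522 CPM. Of 18 markers of leukocytes, stroma and endothelium, 3 were tested and 4 were at 0 in every library, and their sum lay between 21.0 and 90.1 CPM. With vehicle that sum was 35.1 to 56.9 CPM with control siRNA, 25.5 to 29.4 with E2F1 siRNA and 79.0 to 90.1 with E2F2 siRNA. Under R1881 it was 33.4 to 35.5, 21.0 to 25.3 and 42.7 to 53.1 CPM in the same order. Under each treatment the sum was thus lower with E2F1 siRNA and higher with E2F2 siRNA than with control siRNA. VWF was among the genes that moved, and the part of these markers in the results was not tested. In RNA from a whole culture, a change in the number of cells that express a gene and a change in RNA per cell cannot be told apart.

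Of the 10 genes, 7 lie in 2 clusters. OAS1, OAS3 and OAS2 lie side by side on chromosome 12 between 112906777 and 113011723 (GRCh38), a span of 104.9 kb, with OASL apart on the same chromosome (121019111 to 121039242). IFIT2, IFIT3, IFIT1 and IFIT5 lie on chromosome 10 between 89283694 and 89421001, a span of 137.3 kb. RSAD2 is on chromosome 2 (6865806 to 6898239) and MX1 on chromosome 21 (41420304 to 41459214). Exons of IFIT2 share 65 bases with LIPA on the opposite strand and those of RSAD2 share 14 bases with CMPK2, so that a few of their reads could belong to the partner if strand was not used in counting. IFIT2 also shares 356 exon bases (8.68%) with AL353751.1 on the same strand, an overlap that strand does not resolve. On the opposite strand, OAS1 shares 92 bases with AC004551.1 and MX1 236 with AP001610.1. AL353751.1, AC004551.1 and AP001610.1 had 0 counts over all libraries.

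RefSeq promoter windows (GRCh38.p14, plus strand, 250 bases before to 50 after a transcript start) were available for 7 of the 10 genes, in 11 windows; OAS2, OASL and IFIT2 had none. The 6 below, 1 per gene, are shown because they hold letters of the element that the interferon-activated complex is known to bind, in genes that rose with E2F siRNA (the first 3) and in genes that rose with 1 pool or not at all (the last 3). Capitals mark matches to the ISRE core, searched on both strands as GAAANNGAAA or, a form added after the sequences were seen, GAAANGAAA; the matches may overlap.
OAS1, chr12:112906712-112907011: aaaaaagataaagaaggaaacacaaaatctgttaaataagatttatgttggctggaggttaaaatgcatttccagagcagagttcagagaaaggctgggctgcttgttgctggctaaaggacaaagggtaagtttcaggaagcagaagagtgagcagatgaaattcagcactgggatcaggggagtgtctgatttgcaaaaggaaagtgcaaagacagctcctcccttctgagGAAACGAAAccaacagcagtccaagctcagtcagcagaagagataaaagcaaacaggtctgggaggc
IFIT1, chr10:89392373-89392672: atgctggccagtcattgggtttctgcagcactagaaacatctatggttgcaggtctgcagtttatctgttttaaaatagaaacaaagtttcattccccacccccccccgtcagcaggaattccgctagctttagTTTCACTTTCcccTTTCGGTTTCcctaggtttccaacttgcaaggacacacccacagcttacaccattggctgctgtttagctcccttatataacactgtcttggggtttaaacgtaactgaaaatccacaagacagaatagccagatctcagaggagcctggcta
RSAD2, chr2:6877527-6877826: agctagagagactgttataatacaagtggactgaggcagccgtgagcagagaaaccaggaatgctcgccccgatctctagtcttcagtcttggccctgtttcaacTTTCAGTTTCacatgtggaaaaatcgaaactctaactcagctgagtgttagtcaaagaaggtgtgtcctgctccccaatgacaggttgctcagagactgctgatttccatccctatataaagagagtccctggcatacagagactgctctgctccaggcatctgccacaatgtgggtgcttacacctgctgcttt
OAS3, chr12:112938224-112938523: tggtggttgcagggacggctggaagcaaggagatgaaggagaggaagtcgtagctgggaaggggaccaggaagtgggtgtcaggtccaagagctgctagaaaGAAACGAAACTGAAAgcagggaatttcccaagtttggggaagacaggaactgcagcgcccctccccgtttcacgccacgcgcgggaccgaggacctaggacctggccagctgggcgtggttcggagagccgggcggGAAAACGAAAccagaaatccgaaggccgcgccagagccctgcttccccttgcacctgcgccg
IFIT5, chr10:89414318-89414617: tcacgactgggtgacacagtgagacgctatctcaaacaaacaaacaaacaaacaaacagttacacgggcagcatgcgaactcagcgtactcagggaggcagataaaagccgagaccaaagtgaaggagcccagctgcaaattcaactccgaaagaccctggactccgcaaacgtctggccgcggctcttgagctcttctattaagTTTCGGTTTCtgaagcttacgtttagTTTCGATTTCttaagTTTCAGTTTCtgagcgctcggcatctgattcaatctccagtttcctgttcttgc
MX1, chr21:41420308-41420607: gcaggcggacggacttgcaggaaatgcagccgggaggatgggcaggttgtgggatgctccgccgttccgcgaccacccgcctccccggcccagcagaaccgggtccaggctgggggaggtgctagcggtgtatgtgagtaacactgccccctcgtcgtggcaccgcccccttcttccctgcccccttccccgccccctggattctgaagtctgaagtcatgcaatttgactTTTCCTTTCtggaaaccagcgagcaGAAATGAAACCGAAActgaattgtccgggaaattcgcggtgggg

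The form with a gap of 2 bases matched in 8 of the 11 windows, from 6 of the 7 genes, against 3.57% of 35116 RefSeq windows of the same 300 bases. That with a gap of 1 matched in 6 windows of 5 genes, against 3.12%. One or the other was present in all 11 windows (6.40% of all windows), a count that depends on the form added after these sequences were seen. Among the genes that rose with both pools, OAS1 held 1 match, which begins 17 bases before the transcript start, IFIT1 held 2, the 2 windows of IFIT3 held 2 and 3, and those of RSAD2 held 4 and 1. Among the others, OAS3 and IFIT5 held 3 each and the 3 windows of MX1 held 3, 2 and 1, so matches were present in genes that rose and in genes that did not. The E2F motif, searched on both strands as TTTCGCGC or TTTGGCGC, was found in 1.15% of all windows and in 0 of the 11.

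**Figure D1:**
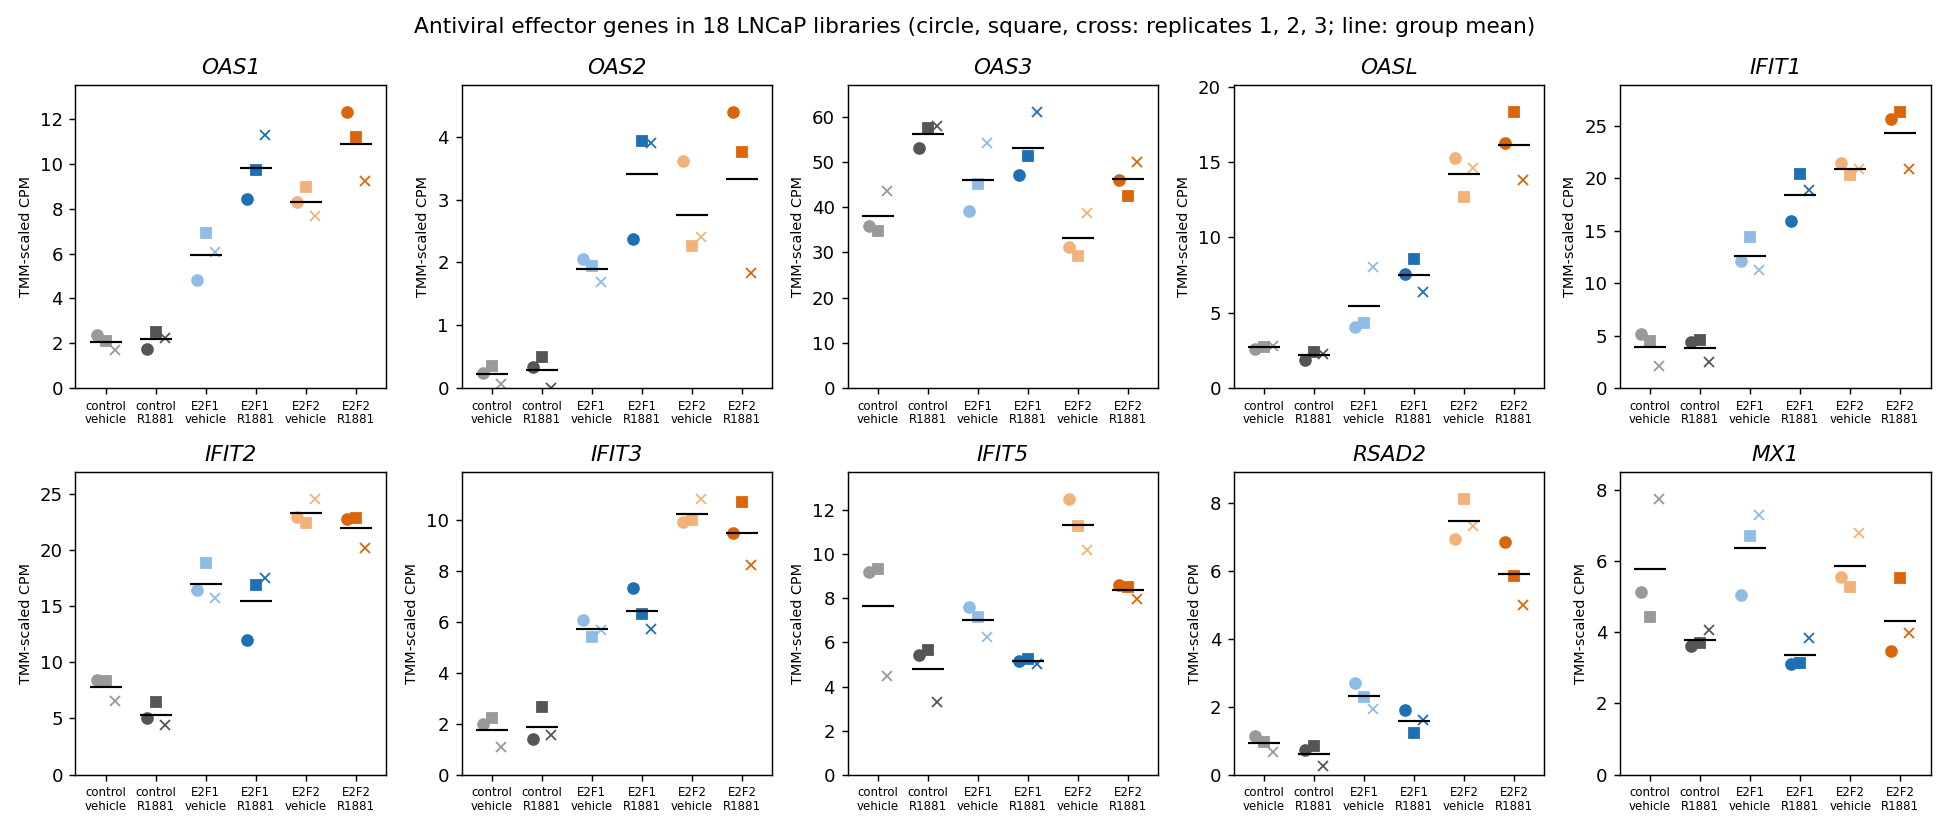
TMM-scaled CPM (vertical axes, each from 0) of the 10 genes in the 18 libraries, by siRNA pool and treatment (horizontal axis); symbols mark replicates 1 to 3 and lines group means. In OAS1, OAS2, OASL, IFIT1, IFIT2, IFIT3 and RSAD2 every library with E2F siRNA lies above every control library of the same treatment, and in IFIT5 every library with E2F2 siRNA does; MX1 overlaps its controls throughout.

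The first question was how E2F1 siRNA in androgen-treated cells bore on these genes. With E2F1 siRNA under R1881, 7 of the 10 were called higher (edgeR quasi-likelihood test, Benjamini-Hochberg adjusted p under 0.05) and none lower, against 9.34% of all tested genes called in either direction, 4.42% higher and 4.92% lower. Their median log2 fold change was 1.66, beside -0.01 over all tested genes. The genes called were OAS1, OAS2, OASL, IFIT1, IFIT2, IFIT3 and RSAD2, in each of which all 3 E2F1 siRNA libraries lay above all 3 controls, as they did in 15.9% of all tested genes.

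The OAS family divided. OAS1, a synthetase with a single catalytic unit, stood at 1.74, 2.50 and 2.25 CPM in the 3 libraries of control siRNA with R1881 and at 8.45, 9.71 and 11.3 CPM with E2F1 siRNA. The groups were well apart, with a 4.54-fold rise (log2 2.18 ± 0.19 (SE), adjusted p = 5.35e-06). OAS2 was the least abundant of the 10 in control cells. It had 5, 7 and 0 counts in the control libraries with R1881, where 0 allows up to 3, and 29, 54 and 46 with E2F1 siRNA (2.38, 3.94 and 3.91 CPM). The rise was 11.3-fold (log2 3.50 ± 0.51, adjusted p = 4.04e-04), and its large SE goes with the low control counts. OASL went from 1.87, 2.36 and 2.25 CPM to 7.55, 8.54 and 6.38 CPM, 3.48-fold (log2 1.80 ± 0.23, adjusted p = 1.52e-04), again with no overlap. OAS3, the largest of the synthetases, did not follow. It stood at 53.1, 57.6 and 57.9 CPM with control siRNA and 47.1, 51.4 and 61.0 CPM with E2F1 siRNA, with groups that overlapped (log2 -0.08 ± 0.14, adjusted p = 0.844), although it lies between OAS1 and OAS2 on the chromosome.

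Of the 4 IFIT genes, 3 rose. IFIT1, which binds capped viral RNA, stood at 4.34, 4.57 and 2.51 CPM with control siRNA and R1881 and at 15.9, 20.4 and 18.9 CPM with E2F1 siRNA (4.79-fold, log2 2.26 ± 0.25, adjusted p = 4.20e-05). IFIT3, the partner that stabilises IFIT1, went from 1.40, 2.64 and 1.56 CPM to 7.30, 6.28 and 5.70 CPM (3.42-fold, log2 1.77 ± 0.24, adjusted p = 1.88e-04). IFIT2, which forms complexes with both, went from 5.01, 6.50 and 4.41 CPM to 12.0, 16.9 and 17.5 CPM (2.91-fold, log2 1.54 ± 0.17, adjusted p = 3.12e-05). For these 3 genes no E2F1 siRNA library overlapped the controls. IFIT5, at the other end of the same cluster, stood at 5.41, 5.64 and 3.29 CPM with control siRNA and at 5.17, 5.26 and 5.02 CPM with E2F1 siRNA. The groups overlapped (log2 0.10 ± 0.24, adjusted p = 0.895).

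RSAD2 stood at 0.735, 0.857 and 0.260 CPM with control siRNA and R1881 and at 1.89, 1.24 and 1.62 CPM with E2F1 siRNA. The groups did not overlap, and the rise was 2.45-fold (log2 1.29 ± 0.32, adjusted p = 0.0178). This call was lost without replicate 3 of control siRNA (log2 0.98, adjusted p = 0.0605), without replicate 1 or 3 of E2F1 siRNA (1.15 and 1.28, adjusted p = 0.0840 and 0.0559), in a fit to these 2 groups alone (1.27, adjusted p = 0.0580) and with replicates 1 and 2 only (0.96, adjusted p = 0.0545). MX1 stood at 3.61, 3.71 and 4.07 CPM with control siRNA and 3.12, 3.14 and 3.83 CPM with E2F1 siRNA, overlapping groups (log2 -0.17 ± 0.23, adjusted p = 0.780).

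With vehicle and E2F1 siRNA, 7 of the 10 were again called higher, with a median log2 fold change of 1.22 over the 10 (0.01 over all tested genes). Of all tested genes 5.28% were called in either direction, 2.36% higher and 2.92% lower. All 7 lay apart from their controls, as 7.20% of all tested genes did in that direction. The rises were 8.58-fold for OAS2 (log2 3.10 ± 0.58, adjusted p = 0.00452), 3.26-fold each for IFIT1 and IFIT3 and 2.90-fold for OAS1. IFIT2 rose 2.19-fold (log2 1.13 ± 0.16, adjusted p = 4.98e-04). RSAD2 went from 1.15, 0.969 and 0.667 CPM to 2.71, 2.30 and 1.92 CPM, with no overlap (2.50-fold, log2 1.32 ± 0.29, adjusted p = 0.0122), a call that was lost without replicate 1 of E2F1 siRNA (adjusted p = 0.0695). OASL went from 2.61, 2.70 and 2.80 CPM to 4.03, 4.33 and 8.00 CPM. Replicate 3 was almost as high as both others together, and the call (2.02-fold, log2 1.01 ± 0.23, adjusted p = 0.0178) was lost without it (log2 0.62, adjusted p = 0.0669), and likewise without replicate 1 or 2 of control siRNA (adjusted p = 0.0587 and 0.0546). OAS3 differed by log2 0.28 ± 0.14 (adjusted p = 0.366) and was called higher with the replicate number as a block (0.28, adjusted p = 0.0417) and with replicates 1 and 2 only (0.26, adjusted p = 0.0310). In a fit to the 2 groups alone, which called 17 of 14233 genes in all, none of the 10 passed; that fit has 6 libraries, and the log2 fold change of OAS1 was 1.54 in both fits (adjusted p = 0.0839 in the smaller).

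The second question was the same for E2F2 siRNA. With E2F2 siRNA under R1881, 8 of the 10 were called higher and none lower, against 30.3% of all tested genes called in either direction, 15.9% higher and 14.4% lower. All 8 lay apart from their controls, as 25.6% of all tested genes did in that direction. The median log2 fold change was 2.33, beside 0.03 over all tested genes. These comparisons use the same control libraries as those of the E2F1 pool, so a chance deviation in a control would move both.

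RSAD2 had the highest fold change after OAS2. It stood at 6.85, 5.85 and 4.99 CPM with E2F2 siRNA against 0.735, 0.857 and 0.260 CPM with control siRNA, 9.14-fold higher (log2 3.19 ± 0.28, adjusted p = 5.58e-07). OASL stood at 16.3, 18.3 and 13.8 CPM, 7.47-fold above control (log2 2.90 ± 0.23, adjusted p = 2.27e-07). OAS2 stood at 4.39, 3.76 and 1.83 CPM (52, 45 and 22 counts), 11.0-fold above control (log2 3.46 ± 0.52, adjusted p = 1.03e-04), and OAS1 at 12.3, 11.2 and 9.24 CPM, 5.05-fold (log2 2.34 ± 0.19, adjusted p = 2.96e-07). None of these 4 genes overlapped its controls. For OAS3, all 3 libraries with E2F2 siRNA (46.1, 42.6 and 50.0 CPM) lay below all 3 controls (53.1, 57.6 and 57.9 CPM), a separation in that direction shown by 23.4% of all tested genes. The difference of log2 -0.28 ± 0.14 did not pass (adjusted p = 0.152). It was called lower in a fit to the 2 groups alone (-0.32, adjusted p = 0.0234) and with replicates 1 and 2 only (-0.32, adjusted p = 0.00134). Those fits called 39.6% and 51.4% of all tested genes in either direction, against 30.3% in the full fit.

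All 4 IFIT genes rose with E2F2 siRNA under R1881. IFIT1 stood at 25.7, 26.3 and 20.9 CPM (6.30-fold above control, log2 2.66 ± 0.26, adjusted p = 1.33e-06), IFIT3 at 9.47, 10.7 and 8.24 CPM (5.04-fold) and IFIT2 at 22.7, 22.8 and 20.2 CPM (4.11-fold). IFIT5 stood at 8.62, 8.53 and 7.99 CPM, each above the highest control of 5.64 CPM, a rise of 1.74-fold (log2 0.80 ± 0.24, adjusted p = 0.0180). The IFIT5 call was lost without replicate 3 of control siRNA (log2 0.60, adjusted p = 0.0850) and, narrowly, without replicate 1 or 2 of E2F2 siRNA (adjusted p = 0.0513 and 0.0505). MX1 stood at 3.47, 5.52 and 3.99 CPM against 3.61, 3.71 and 4.07 CPM, overlapping (log2 0.19 ± 0.23, adjusted p = 0.577).

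With vehicle, 7 of the 10 were called higher with E2F2 siRNA and none lower, against 27.3% of all tested genes called in either direction, 14.2% higher and 13.1% lower. The 7 and IFIT5 lay apart from their controls, as 20.4% of all tested genes did in that direction. The median was log2 2.21, beside 0.02 over all. OAS2 rose 12.5-fold (log2 3.64 ± 0.56, adjusted p = 1.56e-04) and RSAD2 8.01-fold, from 1.15, 0.969 and 0.667 CPM to 6.94, 8.11 and 7.32 CPM (log2 3.00 ± 0.26, adjusted p = 5.51e-07). IFIT3 rose 5.82-fold, IFIT1 5.41-fold, OASL 5.23-fold, OAS1 4.07-fold and IFIT2 3.00-fold. IFIT5 was at 12.5, 11.3 and 10.2 CPM against 9.21, 9.34 and 4.47 CPM, so the groups did not overlap, and its difference of log2 0.56 ± 0.23 had an adjusted p of 0.0773. It was called with the replicate number as a block (0.59, adjusted p = 0.00835), without replicate 2 of control siRNA (0.73, adjusted p = 0.0427) and with replicates 1 and 2 only (0.36, adjusted p = 0.0373). OAS3 (log2 -0.20 ± 0.14, adjusted p = 0.324) and MX1 (0.03 ± 0.22, adjusted p = 0.943) overlapped their controls; with replicates 1 and 2 only, OAS3 was called lower (-0.22, adjusted p = 0.0448).

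**Figure D2:**
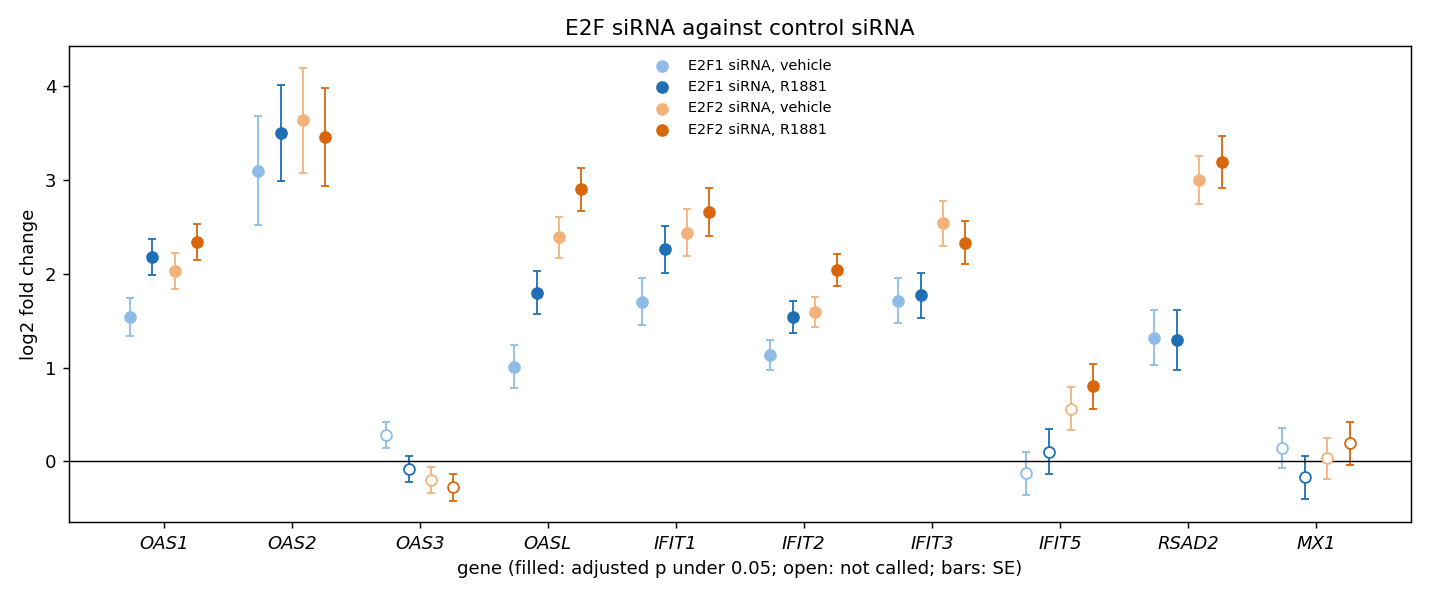
Log2 fold change of each gene (horizontal axis) with E2F1 or E2F2 siRNA against control siRNA, with vehicle or R1881; bars are the SE of the edgeR fit, and filled points are genes called. OAS2 has the highest values and the widest bars, OAS3 and MX1 lie within 0.28 of 0 in all 4 comparisons, and RSAD2 and OASL lie higher with E2F2 siRNA than with E2F1 siRNA.

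The 2 pools were also set against each other directly. Under R1881, 4 of the 10 genes were higher with E2F2 siRNA than with E2F1 siRNA and none lower, against 24.0% of all tested genes called in either direction, 13.1% higher and 11.0% lower; with vehicle, 7 were higher and 1 lower, against 30.6% called in either direction, 16.1% higher and 14.4% lower. RSAD2 differed most: 6.85, 5.85 and 4.99 CPM against 1.89, 1.24 and 1.62 CPM under R1881 (3.73-fold, log2 1.90 ± 0.25, adjusted p = 4.39e-05), and 3.21-fold with vehicle (log2 1.68 ± 0.23, adjusted p = 4.81e-05). OASL was 2.15-fold higher with E2F2 siRNA under R1881 (log2 1.10 ± 0.20, adjusted p = 8.99e-04) and 2.59-fold with vehicle (log2 1.38 ± 0.21, adjusted p = 1.23e-04). In neither gene did any library of one pool overlap the other, a separation in that direction shown by 23.8% of all tested genes under R1881 and 22.8% with vehicle, and neither call was lost when any library was left out.

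The other differences between the pools were smaller. Most of their calls were lost when any 1 of 3 to 6 libraries was left out, and each called difference kept its direction. IFIT3 was 1.78-fold higher with E2F2 siRNA and vehicle (log2 0.83 ± 0.21, adjusted p = 0.00639), a call kept without any 1 library, and under R1881 it differed by log2 0.56 ± 0.21 without passing (adjusted p = 0.0633). That IFIT3 difference was called in a fit to the 2 groups alone (0.55, adjusted p = 0.0201), with replicates 1 and 2 only (0.58, adjusted p = 0.00901) and by DESeq2 (0.57, adjusted p = 0.0207). IFIT1 differed under R1881 by log2 0.40 ± 0.23 with no overlap (adjusted p = 0.237), and was called in the first 2 of those fits (0.39, adjusted p = 0.0400, and 0.51, adjusted p = 5.95e-04). IFIT5 was higher by log2 0.70 ± 0.24 under R1881 (adjusted p = 0.0427) and 0.69 ± 0.23 with vehicle (adjusted p = 0.0319). The first IFIT5 call was lost without any 1 of the 6 libraries (adjusted p = 0.0735 to 0.112), and the second without 5 of them. IFIT2 was higher by 0.50 ± 0.16 and 0.46 ± 0.16 (adjusted p = 0.0290 and 0.0369), and these calls were lost without 3 and 5 of the 6 libraries. With vehicle, IFIT1 (log2 0.73 ± 0.23, adjusted p = 0.0261) and OAS1 (0.49 ± 0.18, adjusted p = 0.0463) were also higher with E2F2 siRNA, each lost without 5 of the 6. OAS3 was lower by log2 -0.48 ± 0.14 with vehicle (adjusted p = 0.0185), and this was lost without replicate 3 of E2F1 siRNA (-0.35, adjusted p = 0.0937) or replicate 1 or 2 of E2F2 siRNA (adjusted p = 0.0690 and 0.0855). OAS2 did not pass in either comparison (log2 -0.04 ± 0.36 and 0.54 ± 0.40), nor did MX1 (0.37 ± 0.23 and -0.11 ± 0.22).

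**Figure D3:**
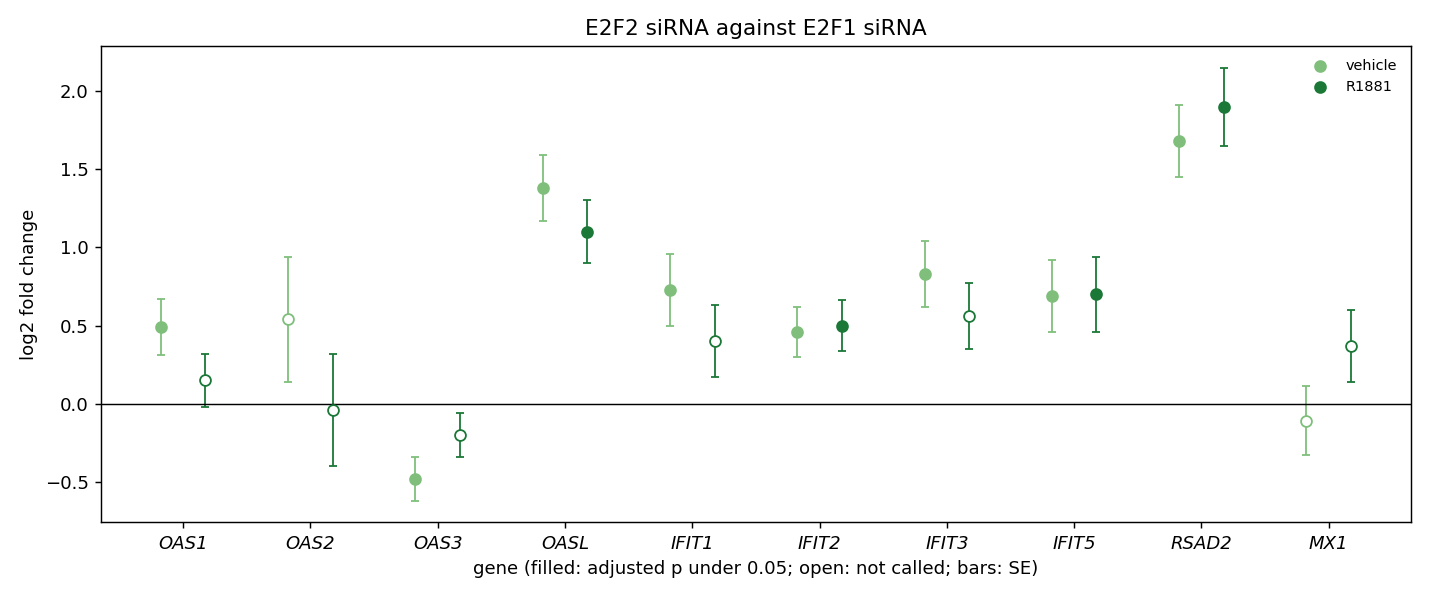
Log2 fold change of each gene (horizontal axis) with E2F2 siRNA against E2F1 siRNA, with vehicle or R1881; bars are the SE of the edgeR fit, and filled points are genes called. RSAD2 and OASL lie above 1 with both treatments, and OAS3 with vehicle is the one gene called lower.

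The third question was whether androgen itself moved these genes. With control siRNA, R1881 was followed by 1 gene higher and 2 lower of the 10, against 27.0% of all tested genes called in either direction, 13.8% higher and 13.2% lower. OAS3 rose from 35.8, 34.7 and 43.6 CPM to 53.1, 57.6 and 57.9 CPM (1.48-fold, log2 0.56 ± 0.14, adjusted p = 0.00731). IFIT2 fell from 8.44, 8.30 and 6.54 CPM to 5.01, 6.50 and 4.41 CPM (log2 -0.54 ± 0.17, adjusted p = 0.0273). IFIT5 went from 9.21, 9.34 and 4.47 CPM to 5.41, 5.64 and 3.29 CPM, overlapping, with replicate 3 the lowest in both groups (log2 -0.67 ± 0.24, adjusted p = 0.0472). The IFIT2 call was lost without replicate 1 or 2 of vehicle or 1 or 3 of R1881 (adjusted p = 0.0826 to 0.114), and the IFIT5 call without the same libraries (0.0669 to 0.180) and, narrowly, under a different scaling of the libraries (0.0502). MX1 went from 5.14, 4.43 and 7.74 CPM to 3.61, 3.71 and 4.07 CPM, a difference that did not pass (log2 -0.61 ± 0.22, adjusted p = 0.0532). MX1 was called lower with the replicate number as a block (-0.59, adjusted p = 0.0175) and without replicate 2 of vehicle (-0.77, adjusted p = 0.0221).

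With E2F1 siRNA, R1881 raised OAS1 from 4.83, 6.90 and 6.08 CPM to 8.45, 9.71 and 11.3 CPM (1.66-fold, log2 0.73 ± 0.17, adjusted p = 0.00619). It lowered MX1 from 5.05, 6.72 and 7.31 CPM to 3.12, 3.14 and 3.83 CPM (log2 -0.92 ± 0.23, adjusted p = 0.00795). Of all tested genes 19.8% were called here in either direction, 10.1% higher and 9.75% lower, against these 2 of the 10. IFIT1 was higher by log2 0.55 ± 0.23 (adjusted p = 0.123), and was called with the replicate number as a block (0.56, adjusted p = 0.0216). OASL was higher by log2 0.46 ± 0.21 (adjusted p = 0.170), and was called without replicate 3 of the vehicle group, its high library (0.85, adjusted p = 0.00231). With replicates 1 and 2 only, IFIT1 (0.47), OASL (0.95) and OAS3 (0.23) were also called higher and IFIT5 (-0.51) lower, with adjusted p = 0.00384, 1.05e-04, 0.0245 and 0.0155; OAS3 differed by log2 0.20 ± 0.14 and IFIT5 by -0.44 ± 0.24 in the full fit. With E2F2 siRNA, 1 of the 10 was called, against 22.8% of all tested genes (11.8% higher and 11.0% lower). This was OAS3, from 31.3, 29.3 and 38.7 CPM to 46.1, 42.6 and 50.0 CPM (1.40-fold, log2 0.48 ± 0.14, adjusted p = 0.0224). The call was lost without replicate 1 or 2 of vehicle or replicate 1 or 3 of R1881 (adjusted p = 0.0550 to 0.100). With replicates 1 and 2 only, OAS1 (0.45, adjusted p = 0.0307) and IFIT1 (0.32, adjusted p = 0.0260) were called higher and IFIT5 (-0.47, adjusted p = 0.00893) lower, from log2 0.39, 0.22 and -0.43 in the full fit.

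**Figure D4:**
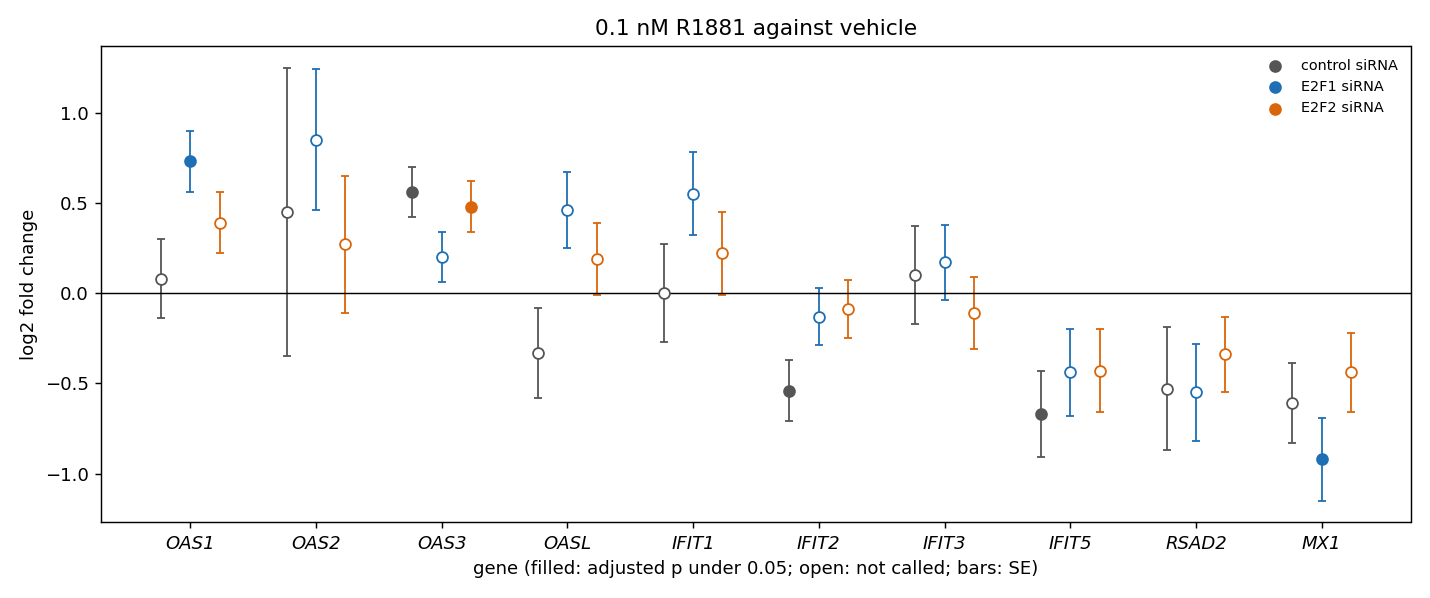
Log2 fold change of each gene (horizontal axis) with R1881 against vehicle within each siRNA pool; bars are the SE of the edgeR fit, and filled points are genes called. All points lie between -0.92 and 0.85; OAS1, OAS2 and OAS3 lie above 0 and IFIT2, IFIT5, RSAD2 and MX1 below 0 with all 3 pools, most of them not called.

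None of the 10 genes passed the test of whether the siRNA effect differed between R1881 and vehicle, for either pool, against 0.685% of all tested genes for E2F1 and 0.889% for E2F2. At an unadjusted p under 0.05 there were 2 for E2F1, against 10.2% of all tested genes, and none for E2F2, against 10.4%; DESeq2 called none. These 2 were OASL (log2 0.79 ± 0.33 more with R1881, unadjusted p = 0.0309, adjusted p = 0.398) and OAS1 (0.65 ± 0.28, unadjusted p = 0.0338, adjusted p = 0.411). Without replicate 3 of E2F1 siRNA with vehicle, its high library, the OASL difference was larger and passed (1.17, adjusted p = 0.0497). With replicates 1 and 2 only, OASL (1.29, adjusted p = 0.00575) and OAS3 (-0.42, adjusted p = 0.0144) passed, the latter from -0.36 ± 0.20 in the full fit. The SEs of these differences, 0.20 to 0.96, leave changes of the size of the R1881 effects above undetectable in most of the 10.

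Levels can be compared between genes only per length of exon, here as CPM per kilobase of the union of annotated exons, and capture of exons adds its own bias. OAS3 had the highest mean of the 10 in 5 of the 6 groups, though with E2F2 siRNA and R1881 (5.60 ± 0.449) it overlapped IFIT2 (5.34 ± 0.359) and IFIT1 (5.27 ± 0.642). It stood at 4.61 ± 0.588 (SD, n = 3) CPM per kilobase with control siRNA and vehicle, apart from IFIT5 (1.91 ± 0.691) and IFIT2 (1.89 ± 0.258), which overlapped each other. IFIT1, OASL, MX1, IFIT3 and OAS1 followed between 0.841 and 0.413, each overlapping its neighbour in that order. RSAD2 (0.192 ± 0.0505) and OAS2 (0.0342 ± 0.0224) were lowest and apart from each other and from OAS1. With E2F2 siRNA and vehicle the order had changed: IFIT2 (5.67 ± 0.267) was highest and apart from the rest, IFIT1 (4.53 ± 0.130) followed within the range of OAS3 (3.55 to 4.69), OASL (4.04), OAS3 (4.01) and IFIT3 (3.88) overlapped as neighbours, and MX1 (0.682) and OAS2 (0.441) were lowest. OAS2, the gene with the highest fold changes, was thus still the lowest of the 10 in that group.

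Over the 18 libraries the mean of the standardised log2 CPM of the 10 genes correlated (Pearson) with IFIT2 at 0.98, IFIT3 at 0.97, IFIT1 at 0.96, OASL at 0.94 and OAS1, OAS2 and RSAD2 at 0.93 each, which each contain themselves, and with IFIT5 at 0.62, MX1 at 0.15 and OAS3 at -0.28. These libraries share groups, so the values describe the pattern across groups. As deviations from group means, which remove the groups, IFIT1 and IFIT5 correlated at 0.92 and IFIT1 and OAS2 at 0.81, whereas OASL stood at -0.11 with IFIT1 and -0.07 with IFIT2. Replicate 3, low for several of these genes in several groups, is among the points. Of 12537 other genes with a mean log2 CPM of at least 1, the 6 most like the mean of the 10 were IFI6 (0.95 over 18 libraries, 0.97 over 6 group means), APPL2 (0.94 and 0.98), KCND3 (0.94 and 0.97), DUSP10 (0.93 and 0.99), TRANK1 (0.92 and 0.99) and BTRC (0.92 and 0.97). These 6 were picked for following the 10 over the same libraries, so a rise with E2F siRNA is largely built into the choice. IFI6, an interferon-induced mitochondrial protein, was higher in all 4 comparisons with control siRNA (log2 2.06 to 2.58). So were DUSP10, a phosphatase of stress-activated kinases (0.67 to 1.27), KCND3 (0.42 to 1.04) and TRANK1 (0.67 to 1.05). APPL2 (0.28 to 0.93) did not pass with E2F1 siRNA and vehicle (adjusted p = 0.0542). BTRC, a ubiquitin ligase subunit, was called higher with E2F2 siRNA (0.43 with R1881 and 0.37 with vehicle) and did not pass with E2F1 siRNA (0.22 and 0.19).

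The ligands that start this pathway were scarcely counted. Of 9 interferon genes, none had enough counts to be tested, 5 were at 0 in every library, and all 9 together gave 14 counts over the 18 libraries, at most 2 in any library. IFNB1, the interferon that most cell types make first, gave 1 count in all, in a library of E2F1 siRNA with vehicle. The libraries therefore set only an upper limit on interferon RNA, and secreted protein was not measured.

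Among receptors and JAK-STAT components, 2 of 14 tested genes rose with E2F1 siRNA under R1881 and none with vehicle, while 5 rose and 1 fell with E2F2 siRNA under R1881 and 2 rose with vehicle. The shares of all tested genes called higher, given above, were 4.42% and 2.36% for E2F1 siRNA with R1881 and vehicle and 15.9% and 14.2% for E2F2 siRNA, so 2 of 14 is near the last of these. JAK1, the kinase shared by these receptors, was at 5.23 ± 0.205 CPM with control siRNA and R1881, 5.89 ± 0.243 with E2F1 siRNA (adjusted p = 0.538) and 6.98 ± 0.366 with E2F2 siRNA (log2 0.42 ± 0.12, adjusted p = 0.0134). With vehicle, JAK1 was also called higher with E2F2 siRNA (log2 0.32 ± 0.11, adjusted p = 0.0435). STAT2 rose under R1881 with E2F1 siRNA, from 64.3 ± 1.96 to 82.7 ± 3.88 CPM (log2 0.36 ± 0.09, adjusted p = 0.0148), and with E2F2 siRNA, to 77.8 ± 1.25 CPM (0.28 ± 0.09, adjusted p = 0.0257), but did not pass with vehicle. Its mean with control siRNA and vehicle, 88.6 ± 10.2 CPM, was above those with either pool under R1881. IRF9, the DNA-binding part of the complex, was low at 0.748 to 1.31 CPM and did not pass in any comparison. IFNGR2, a subunit of the interferon gamma receptor, rose by log2 0.40 with either pool under R1881, from 16.3 to 21.5 CPM. With control siRNA and vehicle IFNGR2 was at 23.8 CPM. IL10RB, shared by the type III interferon receptor, rose with E2F2 siRNA (log2 0.82 ± 0.11 with R1881 and 0.40 ± 0.11 with vehicle).

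None of 14 tested RNA and DNA sensors and interferon regulatory factors passed with E2F1 siRNA under either treatment. With E2F2 siRNA, where 15.9% and 14.2% of all tested genes rose with R1881 and vehicle, 4 rose in each and 1 fell under R1881. IFIH1, the sensor MDA5, rose by log2 1.23 ± 0.18 with R1881 and 0.86 ± 0.18 with vehicle, DDX58, the sensor RIG-I, by 1.26 ± 0.28 and 1.22 ± 0.28, and the transcription factor IRF1 by 0.76 ± 0.20 and 0.67 ± 0.18. Set against E2F1 siRNA directly, IFIH1 was higher with E2F2 siRNA under both treatments (log2 0.88 ± 0.18, adjusted p = 0.00209, and 0.55 ± 0.18, adjusted p = 0.0304), DDX58 with vehicle (0.80 ± 0.27, adjusted p = 0.0362), and IRF1 under neither (0.18 ± 0.20 and 0.16 ± 0.17).

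Among partners of the OAS enzymes and paralogs of the 10 genes, PDE12, which degrades 2-5A, rose with E2F2 siRNA and vehicle (log2 0.42 ± 0.07, adjusted p = 2.68e-04). ABCE1, a ribosome recycling factor also linked to the 2-5A pathway, varied widely within groups (26.6 to 130 CPM with control siRNA and vehicle) and passed in no comparison. MX2, the paralog of MX1, had 1 to 13 counts per group and was not tested. TRIM25, a ubiquitin ligase of the RIG-I pathway, fell with E2F1 siRNA (log2 -0.29 ± 0.07 with R1881 and -0.40 ± 0.07 with vehicle) and rose with E2F2 siRNA and vehicle (0.92 ± 0.07).

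Of 43 other tested interferon-stimulated genes, 12 rose with E2F1 siRNA under R1881, 10 with E2F1 siRNA and vehicle, 23 with E2F2 siRNA under R1881 and 22 with E2F2 siRNA and vehicle, and none fell; 4.42%, 2.36%, 15.9% and 14.2% of all tested genes were called higher in these comparisons. Their median log2 fold changes were 0.50, 0.44, 0.71 and 0.72, below the medians of the 10 genes in each comparison. IFI27 and IFI6 were among the 3 with the smallest p in all 4, and the others were IFITM1 (log2 2.43 ± 0.27, E2F1 siRNA with R1881), GBP1 (3.31 ± 0.46, E2F1 siRNA with vehicle), GBP3 (1.78 ± 0.19, E2F2 siRNA with R1881) and APOL6 (1.33 ± 0.14, E2F2 siRNA with vehicle). Of 8 tested NF-kB and inflammatory genes, 1 rose and 1 fell with E2F1 siRNA under R1881, 1 rose with vehicle, and 3 rose and 1 fell with E2F2 siRNA under each treatment. TNFAIP3, an inhibitor of NF-kB, rose with E2F1 siRNA under R1881 (log2 0.59 ± 0.17) and with E2F2 siRNA (1.11 ± 0.17 and 0.86 ± 0.18). The chemokine CXCL10, with 90 counts over all libraries, rose with E2F2 siRNA (3.08 ± 0.56 and 2.87 ± 0.70). TNFAIP2 fell with E2F1 siRNA under R1881 (-1.74 ± 0.41). NFKB1 rose with E2F1 siRNA and vehicle (0.28 ± 0.07) and fell with E2F2 siRNA (-0.30 ± 0.07 with R1881 and -0.28 ± 0.07 with vehicle).

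**Figure D5:**
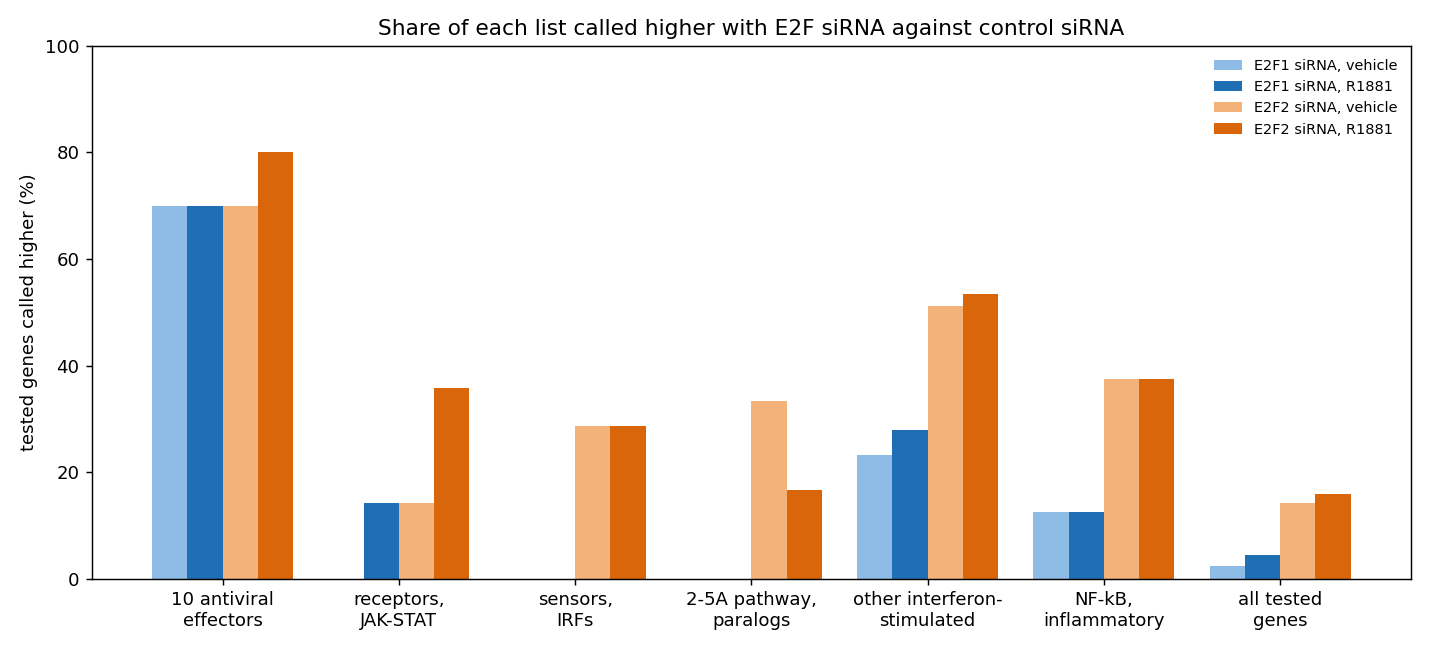
Share of the tested genes of each list called higher with E2F1 or E2F2 siRNA against control siRNA (vertical axis, percent from 0 to 100), beside the share of all 15185 tested genes at the right. The bars of the 10 antiviral effectors (7 or 8 of 10) are above those of the other lists in each comparison; the lists were chosen with earlier results known and were given no set test.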

How the data were processed

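Per the labels' protocols the libraries are exon captures (TruSeq RNA Exome). The deposited values are counts per gene; the submitters' processing notes name CASAVA 1.8.2, TopHat2 2.0.13, Picard 1.97, featureCounts of Subread 1.6.4 and GRCh38. Strand use, multi-mapping rules and the annotation release are not given in the sources used here, so reads shared by overlapping genes or close paralogs may be assigned unevenly. The 10 genes and the gene lists were chosen with earlier results of these data known.

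Genes were filtered with edgeR 4.0.16 (R 4.3.3; filterByExpr, minimum count 10, minimum total 15), which left 15185 of 58037, and libraries were scaled by TMM. One model of 6 group means was fitted to all 18 libraries and 11 comparisons were tested by the quasi-likelihood F test, with Benjamini-Hochberg adjustment over all tested genes and a threshold of 0.05; the common biological coefficient of variation was 0.167. Each SE was computed as the log2 fold change over the root of F. The biological replicates are not described further, so p-values measure the spread between these libraries. The model code was tested on simulated data. Depth was 10930204 to 14819879 counts per library, which leaves genes of a few counts, such as OAS2 in control cells, with wide errors.

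Same-numbered replicates deviated together (every pair over r = 0.1) in 8 of the 11 comparisons. They did not in the 2 comparisons of E2F2 siRNA with another pool under R1881 or in the E2F2 difference between treatments. The main model held no term for the replicate number, so its p-values do not use this pairing. A fit with the replicate number as a block was run as an alternative for all 11 comparisons. Other alternatives were RLE scaling, no filter, DESeq2 1.42.0, the compared groups alone, replicates 1 and 2 only, and leaving out each library. Named genes were all 10, E2F1, E2F2, partners set by name and the 6 genes most like the 10 by correlation. From each list, names were drawn from up to 3 called genes with the smallest p in each comparison with control siRNA. Of the prostate luminal markers and those of leukocytes, stroma and endothelium picked in that way, only VWF is named. Results for 2 of the partners are not reported here. Gene positions are from GENCODE 29 and promoter windows from RefSeq.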

Additional observations from a re-analysis of the deposited data

How the results depend on the processing

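Over the 11 comparisons, 1439 values of the 10 genes were recomputed under alternatives: 1334 kept their side of the threshold and direction, 74 lost a call, 31 gained one, none reversed as a called value, and 58 changed sign while called under neither setting. Fitting only the groups compared gave 0 genes called for E2F1 siRNA with vehicle (7 in the full fit), 1 for R1881 with control siRNA (3) and 2 for R1881 with E2F2 siRNA (1). Of all tested genes these fits called 0.119%, 12.9% and 30.9%, against 5.28%, 27.0% and 22.8% in the full fit. Without the filter on low counts 2 were called for E2F2 against E2F1 siRNA with R1881 (4), 5 with vehicle (8) and 1 for R1881 with control siRNA (3). There 10.1%, 13.9% and 12.0% of all genes tested without the filter were called, against 24.0%, 30.6% and 27.0% in the full fit. Replicates 1 and 2 alone gave 6 for R1881 with E2F1 siRNA (2), 4 for R1881 with E2F2 siRNA (1) and 2 for the difference in E2F1 effect between treatments (0). In these 38.3%, 45.5% and 12.1% of all tested genes were called, against 19.8%, 22.8% and 0.685% in the full fit. The cause of these changes was not tested. Leaving out 1 library gave 6 to 7 genes called for E2F1 siRNA with R1881 and with vehicle, 7 to 8 for E2F2 siRNA with R1881 and with vehicle, 2 to 3 and 3 to 7 for E2F2 against E2F1 siRNA (R1881, vehicle), 1 to 3, 2 to 3 and 0 to 1 for R1881 with control, E2F1 and E2F2 siRNA, and 0 to 1 and 0 to 0 for the differences in E2F1 and E2F2 effect.

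With the replicate block, 7 and 8 genes were called for E2F1 siRNA with R1881 and vehicle, 9 and 8 for E2F2 siRNA, 5 and 8 for E2F2 against E2F1 siRNA, 4, 3 and 1 for R1881 with control, E2F1 and E2F2 siRNA and 0 for both differences. Of all tested genes the block called, in the same order, 19.9% and 12.7%, 45.6% and 45.3%, and 38.5% and 45.5%. For R1881 it called 42.1%, 30.7% and 36.2%, and for the differences 4.58% and 4.33%. These shares are higher than in the full fit in every comparison. Where the numbers did not pair the libraries, the block called OAS3 lower with E2F2 siRNA and R1881 (log2 -0.29, adjusted p = 0.0110) and IFIT3 higher with E2F2 than E2F1 siRNA (0.56, adjusted p = 0.0186). The block changed no call other than those given here or beside the results. Depth limits OAS2 most, with 0 to 7 counts in each control library.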
